A study of Mus musculus with 162 samples.

Results

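Alternatively activated macrophage genes were followed through the MC903 mouse model of atopic dermatitis, the inflammatory skin disease also known as eczema. The set held 10 genes of the 46078 listed for each library, named by symbol and not by their values: Arg1, Chil3, Retnla, Ear2, Mrc1, Mgl2, Cd163, Folr2, Lyve1 and Adgre1. All 10 matched a gene identifier of the count files, and all were tested in each of the 9 skin comparisons, so no member was lost to a filter there.

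Macrophages change their gene programme with the signals they receive, and interleukin-4 and interleukin-13, which act through receptors that share the IL-4 receptor alpha chain and through the transcription factor STAT6, turn on the programme called alternative activation. Its classical mouse markers are the enzyme arginase 1 (Arg1), the chitinase-like lectin Ym1 (Chil3), the secreted protein RELM-alpha (Retnla) and the lectin receptors CD206 (Mrc1) and CD301b (Mgl2). Cd163, Folr2 and Lyve1 mark macrophages that live in tissues, Ear2 codes for a ribonuclease of eosinophils and some macrophages, and Adgre1 codes for F4/80, a surface protein of most mouse macrophages.

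RNA was sequenced from cheek skin and trigeminal ganglion, which holds the sensory neurons of the face, and from spinal cord of mice treated on the back. The mice were adult C57BL/6 males of 8 to 12 weeks. They received 0.2 mM MC903, also called calcipotriol, a vitamin D analog, or the vehicle, 100% ethanol (20 µL on the cheek or 40 µL on the back). Day 1 means 6 h after the first treatment, and the other times were days 2, 5, 8 and, here only in TSLPR.KO mice, day 12.

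Skin libraries of wild-type mice without injection numbered 4 with MC903 and 4 with ethanol at day 1, 3 and 2 at day 2, 3 and 3 at day 5, and 5 and 6 at day 8. At day 8 there were also wild-type mice injected with PBS (2 and 3), wild-type mice injected with 250 µg of anti-Gr1, an antibody that depletes neutrophils (4 and 4), TSLPR.KO mice (3 and 2) and BLT1.KO mice (3 and 3). TSLPR.KO mice lack Crlf2, the receptor subunit for the epithelial cytokine TSLP, and also gave 4 and 3 libraries at day 12. BLT1.KO mice carry a mutation of Ltb4r1, the receptor for leukotriene B4. Both alleles were carried by every cell of the animal, in MC903 and ethanol groups alike. The trigeminal ganglion was measured in the same groups other than BLT1.KO, with 2 to 5 libraries per treatment. Spinal cord was measured at day 8 in uninjected (4 and 5), PBS-injected (2 and 2) and anti-Gr1-injected (8 and 6) wild-type mice. The labels number the replicates but do not tie them to animals or cultures, so each p-value measures only the spread between these libraries. Among the wild-type skin libraries of day 8 without injection that carry the first of the 2 label styles described next, 2 MC903 libraries are both numbered 1 and 2 ethanol libraries both 3, and the labels do not say whether libraries of the same number share an animal.

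The 144 libraries analysed held 15931871 to 67342879 counts on genes. Wild-type day 8 libraries without injection came with labels of 2 styles, called cohorts A and B here, and the fits carried a term for them. A skin library of day 2, MC903 replicate 3, stood apart: its summed level over 6 neuron genes was 1368 cpm (counts per 1000000 counts on genes), against 19.8 to 28 in the other 4 libraries of that day. In spinal cord, uninjected ethanol replicate 1 stood apart in 3 members. Crlf2 lay at 0.0691 to 1.34 cpm in TSLPR.KO skin and at 2.24 to 15.4 cpm in wild-type skin. Ltb4r1 was not at 0 in BLT1.KO skin, with 2.33 to 3.70 cpm after ethanol and 10.6 to 15.2 cpm after MC903, against 6.66 to 10.5 and 33.5 to 77.6 cpm in uninjected wild-type skin of day 8. Keratinocyte genes summed to at least 3290 cpm in every skin library, and the neuron genes summed to at least 1572 cpm in every ganglion library and 2103 cpm in every spinal cord library.

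The promoters of Retnla and of Chil3 are shown because these genes of the same programme moved in opposite directions in skin, and that of Chil4 because it is the neighbouring copy of Chil3. The sequences are RefSeq's for GRCm38.p6, run from 250 bases before to 50 bases after the transcription start, and are written 5′ to 3′ on the strand of the gene. Capitals mark TTC and GAA with any 4 bases between them, the spacing that STAT6 favours, or TTC and GAA with any 3 bases between them, the spacing of other STAT factors (both read the same on either strand). Of 32851 promoters in the table, 6.95% held the 4-base spacing and 8.3% the 3-base spacing. Retnla lies at chr16:48842359-48842658 on the plus strand, Chil3 at chr3:106167515-106167814 on the minus strand and Chil4 at chr3:106219430-106219729 on the minus strand.
Retnla: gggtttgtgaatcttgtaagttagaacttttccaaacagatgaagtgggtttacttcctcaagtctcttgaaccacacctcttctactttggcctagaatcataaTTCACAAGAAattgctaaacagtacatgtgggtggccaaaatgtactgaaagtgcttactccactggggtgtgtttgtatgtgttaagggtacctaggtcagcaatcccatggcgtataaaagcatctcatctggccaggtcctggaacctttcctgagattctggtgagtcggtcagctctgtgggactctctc
Chil3: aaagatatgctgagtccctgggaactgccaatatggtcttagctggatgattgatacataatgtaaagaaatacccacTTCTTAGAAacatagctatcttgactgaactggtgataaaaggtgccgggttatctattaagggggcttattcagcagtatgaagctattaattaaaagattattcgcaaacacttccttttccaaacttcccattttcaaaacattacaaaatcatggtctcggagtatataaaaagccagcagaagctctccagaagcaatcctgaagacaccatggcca
Chil4: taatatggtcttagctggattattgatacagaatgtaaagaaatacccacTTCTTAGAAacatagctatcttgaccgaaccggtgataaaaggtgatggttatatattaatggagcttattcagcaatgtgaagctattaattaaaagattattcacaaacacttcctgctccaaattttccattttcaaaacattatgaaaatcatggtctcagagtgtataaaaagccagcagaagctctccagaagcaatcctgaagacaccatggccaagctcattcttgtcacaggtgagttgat
The table held promoters for 7 of the 10 members, and of these Retnla alone held the 4-base spacing and Chil3 alone the 3-base spacing. A match is a description of the letters and was not tested as a binding site.

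In skin of uninjected wild-type mice given ethanol (15 libraries over days 1 to 8), Retnla stood far above the other members per length, with a median of 172.7 cpm per kilobase of exon (88.9 to 340.8). Mgl2 (26.6), Mrc1 (24.4), Ear2 (24.1), Arg1 (18.5), Cd163 (18.5) and Adgre1 (12.6) followed in medians of cpm per kilobase, and their ranges overlapped. Folr2 (9.07) and Lyve1 (5.33) were lower still. Chil3 was near the floor, with a median of 0.141 cpm per kilobase (0.0658 to 0.378), and no library reached the lowest of any other member. In the ganglion Mrc1 led with a median of 3.59 cpm per kilobase, and in spinal cord Adgre1 led with 2.04. Retnla had medians of 0.897 and 0.475 cpm per kilobase in those tissues. The high level of Retnla was thus measured in skin and not in the nervous tissues.

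**Figure D1:**
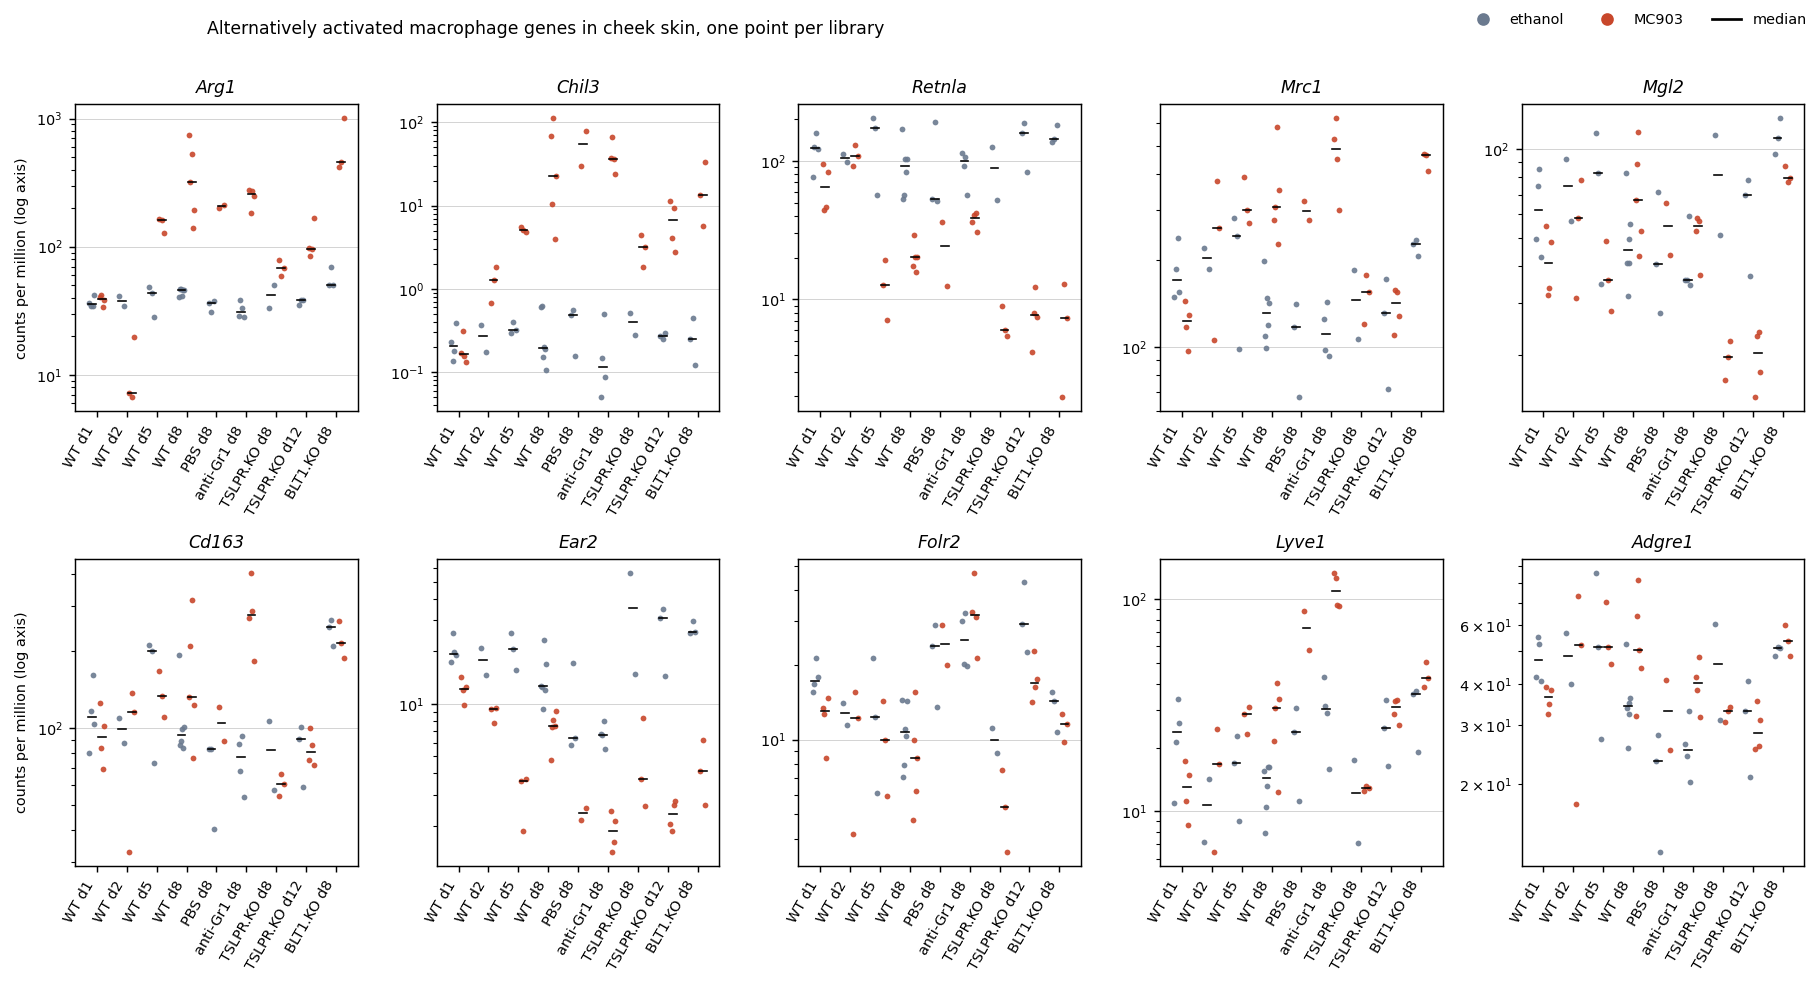
Level of each of the 10 genes in skin (vertical axis, cpm, log scale) in 9 groups (horizontal axis), 1 point per library for MC903 and for ethanol with a black line at the median and the 1 Chil3 library at 0 drawn at 0.05. MC903 and ethanol points separate upwards for Chil3 and Arg1 from day 5 and downwards for Retnla and Ear2, and mostly overlap for Folr2 and Adgre1.

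In wild-type skin Retnla, Ear2, Mrc1, Folr2 and Adgre1 were called lower 6 h after the first MC903 treatment. Chil3 and Arg1 were called higher at days 5 and 8, when Retnla and Ear2 were lower, and Mrc1 and Lyve1 were called higher at day 8. A gene is called here where edgeR's quasi-likelihood test gave a Benjamini-Hochberg adjusted p under 0.05 over all genes tested. At day 1, 5 of 10 members fell and none rose, where 13% of all genes tested were called (5.51% higher and 7.47% lower). The number ran from 2 to 7 when 1 library was left out, and it was 0 in 1 fit over all skin groups, where the 5 genes had adjusted p of 0.178 to 0.46. At day 2 edgeR called none, as it called 0% of all genes, while 3 members and 1190 genes had an unadjusted p under 0.05 and DESeq2 called 0 members. At day 5, 2 members rose and 2 fell (14.9% of all genes called, 8.15% higher and 6.78% lower). At day 8, 4 rose and 2 fell (23.4% of all genes called, 12.2% higher and 11.2% lower). The median log2 fold change of the members was -0.60 at day 1, -0.14 at day 5 and 0.55 at day 8, beside 0.00, -0.03 and -0.03 over all genes tested. In bulk tissue, fewer cells of a type and less RNA per cell cannot be told apart.

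**Figure D2:**
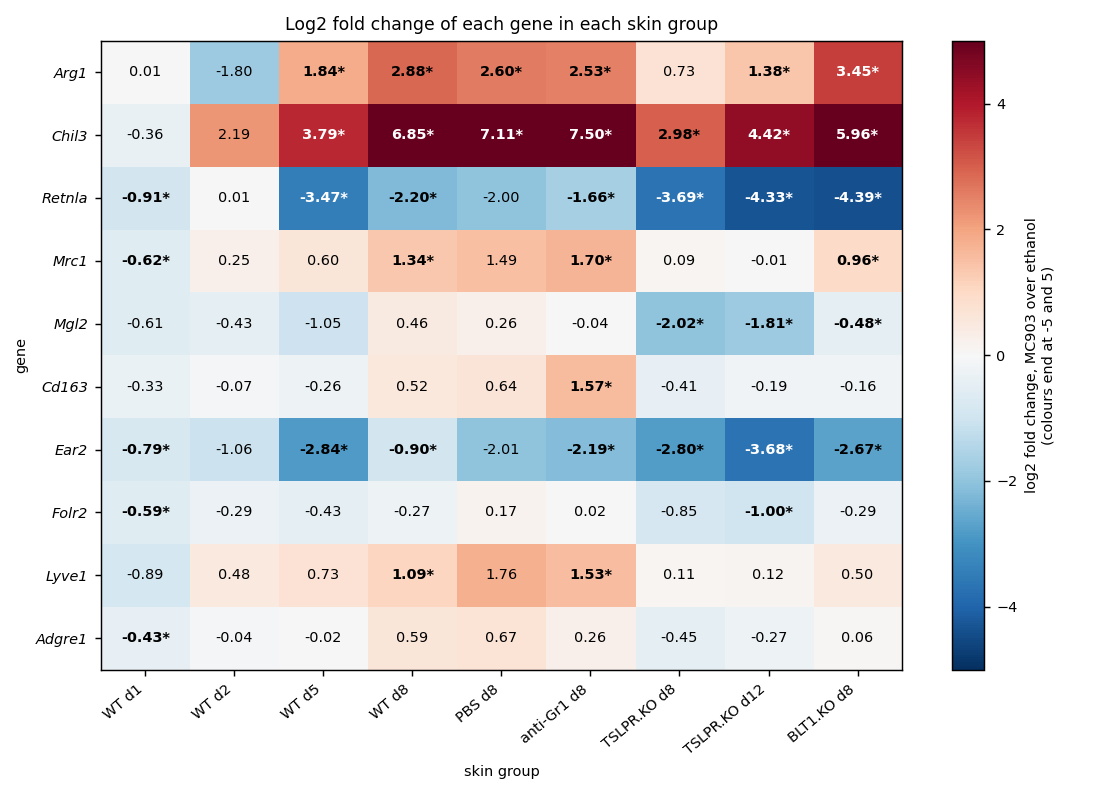
Log2 fold change of MC903 over ethanol (colour, ending at -5 and 5, with the value printed) for the 10 genes (vertical axis) in 9 skin groups (horizontal axis), where an asterisk and bold type mark an adjusted p under 0.05. Chil3 is called higher in every group from day 5 on and Retnla is called lower in all of these except PBS, while Adgre1 is called only at day 1.

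Chil3, the chitinase-like lectin Ym1 that macrophages secrete and that can form crystals in inflamed tissue, showed the largest change of the 10 genes. The gene lies on chromosome 3 (106147554 to 106167564, minus strand, mm10). At day 1 its level was 0.172, 0.314, 0.156 and 0.131 cpm after MC903 and 0.230, 0.137, 0.180 and 0.391 cpm after ethanol, and the groups overlapped. At day 2 it was 1.29, 1.83 and 0.671 cpm against 0.369 and 0.173 cpm. All 3 MC903 libraries were above both ethanol libraries, but the log2 fold change of 2.19 ± 0.76 (SE) had an adjusted p of 0.898. At day 5 Chil3 reached 5.46, 5.03 and 4.78 cpm against 0.296, 0.402 and 0.325 cpm. The groups were far apart, and the log2 fold change was 3.79 ± 0.30, 13.8-fold higher (adjusted p = 0.00032). At day 8 the level was 67.6, 112.2 and 10.4 cpm in cohort A and 3.93 and 22.8 cpm in cohort B after MC903, against 0.107 to 0.617 cpm after ethanol (median 0.197). Every MC903 library was above every ethanol library, although they spanned a wide range among themselves. The log2 fold change was 6.85 ± 0.71 (adjusted p = 2.2e-05), with 7.10 in cohort A alone and 6.34 in cohort B alone.

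Arg1 turns arginine into ornithine and urea and is made by macrophages and also by keratinocytes. It lies on chromosome 10 (24915221 to 24927484, minus strand). At day 1 the gene had 40.2, 42.1, 34 and 38.3 cpm after MC903 and 36.4, 34.3, 34.7 and 41.6 cpm after ethanol, with no separation (log2 fold change 0.01 ± 0.14). At day 2 it had 6.67, 19.7 and 7.24 cpm against 41.3 and 34.6 cpm. All 3 MC903 libraries were then below both ethanol libraries (-1.80 ± 0.55, adjusted p = 0.837), and without MC903 replicate 3 the value was -1.53 (adjusted p = 0.473). The fit over all skin groups called it lower (adjusted p = 0.00219). At day 5 Arg1 had 165, 160.3 and 126.7 cpm against 48.1, 43.2 and 28.4 cpm, 3.59-fold higher (adjusted p = 0.000726). At day 8 it had 741, 529.9 and 319.6 cpm in cohort A and 141 and 194 cpm in cohort B, against 40.3 to 46.9 cpm after ethanol (median 45.6). The MC903 libraries of cohort A were the highest, and all 5 stood above the ethanol libraries. The log2 fold change was 2.88 ± 0.31, 7.36-fold (adjusted p = 3.4e-05), and both cohorts passed alone with 3.55 and 1.96.

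Retnla codes for RELM-alpha, a secreted protein that type 2 cytokines induce in macrophages and that is also made in adipose tissue and epithelium. The gene lies on chromosome 16 (48842551 to 48844461, plus strand). At day 1 it had 94.9, 44.1, 46.7 and 83.2 cpm after MC903 and 76.9, 125.8, 161 and 121.5 cpm after ethanol, and ethanol replicate 1 lay within the MC903 range. The fall of 0.91 ± 0.25 on the log2 scale (adjusted p = 0.0417) was called in the fits without MC903 replicate 1 and without ethanol replicate 1, and was lost without any other library (adjusted p 0.0637 to 0.12). At day 2 it had 131.3, 108 and 92.8 cpm against 112.9 and 98.1 cpm, which overlapped. At day 5 Retnla had 12.7, 19.3 and 7.12 cpm against 204, 172 and 56.9 cpm. Every MC903 library was below every ethanol library, and the gene was 11.1-fold lower (log2 fold change -3.47 ± 0.47, adjusted p = 0.00337). By day 8 it had 17.5, 20.1, 29.3, 15.8 and 20.2 cpm after MC903 and 53.2 to 171 cpm after ethanol (median 92.8), again with no overlap. It was 4.60-fold lower (-2.20 ± 0.28, adjusted p = 0.000114), by -2.07 in cohort A and -2.39 in cohort B.

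Ear2, an eosinophil-associated ribonuclease on chromosome 14 (44102654 to 44103534, plus strand), moved with Retnla. At day 1 the MC903 libraries had 14.2, 12, 9.87 and 12.4 cpm and the ethanol libraries 17.3, 25.3, 19.8 and 18.9 cpm. The groups did not overlap, and the gene was 1.73-fold lower (-0.79 ± 0.12, adjusted p = 0.00455, and 0.178 in the fit over all skin groups). At day 2 it had 7.75, 9.42 and 9.39 cpm against 20.9 and 14.7 cpm (-1.06 ± 0.32, adjusted p = 0.837). At day 5 it had 3.63, 1.86 and 3.70 cpm against 25.5, 20.6 and 15.7 cpm, which put MC903 skin 7.16-fold lower (-2.84 ± 0.28, adjusted p = 0.00087). At day 8 it had 4.74, 8.04, 7.33, 7.46 and 9.11 cpm against 9.31 to 23.2 cpm (median 12.6), and the highest MC903 library came close to the lowest ethanol library. It was 1.87-fold lower (-0.90 ± 0.20, adjusted p = 0.00571), with -0.80 in cohort A (adjusted p = 0.046) and -1.05 in cohort B (adjusted p = 0.0606).

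Mrc1, the mannose receptor CD206, takes up mannose-bearing glycoproteins and collagen and lies on chromosome 2 (14229392 to 14332057, plus strand). At day 1 it had 145, 117.8, 96.7 and 128.9 cpm after MC903 and 149.9, 186, 239 and 156 cpm after ethanol, without overlap. It was 1.54-fold lower (-0.62 ± 0.13, adjusted p = 0.0136, and 0.238 in the fit over all skin groups). By day 5 it had 389.8, 299 and 270.2 cpm against 280.1, 243 and 98.4 cpm, which overlapped (0.60, adjusted p = 0.192). By day 8 it had 277, 584, 308, 228 and 351 cpm against 99.2 to 199 cpm (median 131.1). All MC903 libraries were then the higher ones, by 2.53-fold (1.34 ± 0.23, adjusted p = 0.00107). Mrc1 was thus called lower at 6 h and higher at day 8.

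Mgl2, the lectin CD301b of dermal dendritic cells and macrophages, lies on chromosome 11 (70130329 to 70137550, plus strand). It was not called in uninjected wild-type skin by the main edgeR fits, those used for the calls here. Its log2 fold change was -0.61 ± 0.18 at day 1 (adjusted p = 0.0551), -1.05 ± 0.32 at day 5 (adjusted p = 0.0631) and 0.46 ± 0.23 at day 8 (adjusted p = 0.178). At day 1 it passed without ethanol replicate 1 (adjusted p = 0.0268) or ethanol replicate 4 (adjusted p = 0.0484), and at day 5 without ethanol replicate 3 (adjusted p = 0.0122). With all libraries DESeq2 called it lower at day 1 (adjusted p = 0.0112) and day 5 (adjusted p = 0.00823), as edgeR did without a filter on low counts (adjusted p 0.0464 and 0.044). The filterByExpr filter at day 1 (adjusted p = 0.0458) and the fit over all skin groups at day 5 (adjusted p = 0.0189) called it too. At day 8 it had 67, 113.8, 88.5, 43.4 and 52.6 cpm after MC903 and 31.7 to 82.7 cpm after ethanol (median 45.3), and the groups overlapped. The value was 0.79 in cohort A and 0.01 in cohort B.

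The receptors of tissue-resident macrophages varied. Lyve1, a hyaluronan receptor of lymphatic vessels and of macrophages around blood vessels, lies on chromosome 7 (110850607 to 110863239, minus strand). It had 28.6, 23.2 and 31 cpm at day 5 after MC903 and 16.9, 22.6 and 9.0 cpm after ethanol. The MC903 libraries were the higher ones, but the log2 fold change of 0.73 ± 0.23 missed the threshold (adjusted p = 0.068). It passed without ethanol replicate 2 (adjusted p = 0.0468) and with DESeq2 (0.71, adjusted p = 0.0256). At day 8 Lyve1 had 21.4, 40.5, 30.7, 12.3 and 33.9 cpm against 7.92 to 16.2 cpm (median 14.4). The lowest MC903 library, cohort B replicate 1, lay among the ethanol libraries, and the gene was 2.13-fold higher (1.09 ± 0.27, adjusted p = 0.0113). The call was lost without MC903 cohort B replicate 2 (0.94, adjusted p = 0.0594), and it held in cohort A alone (1.43, adjusted p = 0.0101) but not in cohort B alone (0.64, adjusted p = 0.317). At day 1 its value was -0.89 ± 0.30 (adjusted p = 0.0779), and it passed without ethanol replicate 1 (adjusted p = 0.00688) and with DESeq2 (adjusted p = 0.0127).

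Cd163, the scavenger receptor for haemoglobin bound to haptoglobin, lies on chromosome 6 (124304656 to 124330527, plus strand) and was not called at days 1 to 8 in uninjected wild-type skin. At day 8 it ran from 76.1 to 318 cpm after MC903 (median 132.4) and 83.4 to 194 cpm after ethanol (median 93.9), which overlapped (0.52 ± 0.26, adjusted p = 0.171). Folr2, folate receptor beta, lies on chromosome 7 (101839988 to 101857194, minus strand). At day 1 it had 13.4, 12.7, 8.46 and 14.7 cpm against 15.5, 16.7, 21.2 and 17.8 cpm, and every MC903 library was lower, by 1.5-fold (-0.59 ± 0.15, adjusted p = 0.0291). This call was lost without any of MC903 replicates 1, 2 and 3 or ethanol replicates 3 and 4 (adjusted p 0.0595 to 0.0961). At day 8 Folr2 had 4.77, 15.5, 9.95, 6.19 and 8.41 cpm against 7.08 to 14.4 cpm (median 10.7), with overlap and a log2 fold change of -0.27 (adjusted p = 0.535).

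Adgre1 lies on chromosome 17 (57358691 to 57483527, plus strand) and stands for macrophages in general rather than for their activation. At day 1 it had 39.1, 32.5, 34.8 and 38.4 cpm after MC903 and 41.9, 55.2, 52.7 and 40.7 cpm after ethanol. The groups did not overlap, and it was 1.34-fold lower (-0.43 ± 0.09, adjusted p = 0.0188), a call lost without MC903 replicate 1 or 2 or ethanol replicate 2 or 3 (adjusted p 0.0521 to 0.0614). By day 8 it had 31.9, 81.7, 64.1, 50.4 and 44.6 cpm against 25.6 to 52.5 cpm (median 34.4), with overlap. The log2 fold change of 0.59 ± 0.21 missed the threshold (adjusted p = 0.0578), and passed it without the MC903 library at 31.9 cpm (0.72, adjusted p = 0.0117) or without the ethanol library at 52.5 cpm (0.71, adjusted p = 0.0346). DESeq2 called it higher with all libraries (0.58, adjusted p = 0.0378). In the same libraries the log2 fold changes of Chil3 and Arg1 were 6.85 and 2.88.

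Injected mice were used to read these responses at day 8 under the neutrophil-depleting antibody, beside mice injected with PBS. The difference between the effects was tested against uninjected skin, and against PBS-injected skin as another reference. The paper lists the antibody as directed at Ly-6G and Ly-6C and reports that it depleted neutrophils preferentially. It also reports that inflammatory monocytes in blood differed by treatment, though not at day 5 or day 8 alone. The part of monocytes in the members' values was not tested. In PBS-injected skin 2 members rose and none fell (3.99% of all genes called, 3.26% higher and 0.721% lower), and the members' median log2 fold change was 0.65 beside -0.01 over all genes. Arg1 had 199.9 and 212 cpm after MC903 and 36.2, 30.9 and 37.4 cpm after ethanol, far apart and 6.06-fold higher (2.60 ± 0.18, adjusted p = 0.00181). Chil3 had 29.5 and 78.9 cpm against 0.481, 0.555 and 0.158 cpm, also far apart (7.11 ± 0.62, adjusted p = 0.00312), and its call was lost without ethanol replicate 1 (7.22, adjusted p = 0.0604). With 2 MC903 libraries, Mrc1 (1.49 ± 0.32, adjusted p = 0.061), Lyve1 (1.76 ± 0.41, adjusted p = 0.0766), Ear2 (-2.01 ± 0.55, adjusted p = 0.115) and Retnla (-2.0 ± 0.75, adjusted p = 0.232) were not called. Without ethanol replicate 2, Mrc1 (adjusted p = 0.0144), Ear2 (adjusted p = 0.022) and Lyve1 (adjusted p = 0.0171) passed the test. With all libraries DESeq2 called all 4 of these genes (adjusted p 0.00282 to 0.0363), as did the fit over all skin groups (adjusted p 0.00116 to 0.0162).

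In anti-Gr1-injected skin 5 members rose and 2 fell, the largest number in any group (32.6% of all genes called, 15.1% higher and 17.5% lower), with a median of 0.90 beside -0.02 over all genes. Chil3 had 37.4, 66.5, 35.9 and 24 cpm after MC903 and 0, 0.146, 0.497 and 0.0870 cpm after ethanol. The groups were far apart (log2 fold change 7.50 ± 0.61, adjusted p = 4.41e-05), and the size of this fold rests on ethanol libraries with few counts. Arg1 had 279, 184, 269.9 and 248 cpm against 28.8, 38.5, 33.2 and 28.2 cpm and was 5.79-fold higher (adjusted p = 4.59e-05). Mrc1 was 3.24-fold higher (1.70 ± 0.21, adjusted p = 0.000386), with 300.3 to 624.6 cpm against 93.0 to 143 cpm. Lyve1 was 2.89-fold higher (1.53 ± 0.25, adjusted p = 0.00179), with 133.2, 125.2, 93.8 and 92.7 cpm against 43, 31.5, 29.2 and 15.9 cpm. These receptors rose together with Cd163, which had 269.5, 405, 286 and 183 cpm against 86.7, 67.6, 93.3 and 53.5 cpm. Every MC903 library of Cd163 was the higher, by 2.98-fold (1.57 ± 0.22, adjusted p = 0.000882), and it was called in no other skin group.

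Retnla in anti-Gr1-injected skin had 36.5, 40.5, 42.4 and 30.8 cpm after MC903 against 114.8, 92.7, 106 and 56.8 cpm, 3.15-fold lower (-1.66 ± 0.17, adjusted p = 0.000185). Ear2 had 2.42, 1.42, 1.61 and 2.13 cpm against 6.68, 6.62, 7.95 and 5.48 cpm, 4.55-fold lower (-2.19 ± 0.19, adjusted p = 7.15e-05). Neither gene overlapped between treatments. Adgre1 had a log2 fold change of 0.26 (adjusted p = 0.148) and passed only without MC903 replicate 4 (adjusted p = 0.0421), and Mgl2 (-0.04) and Folr2 (0.02) lay near 0. The summed level of 8 neutrophil genes was 181.1 to 198.2 cpm after MC903 and 5.23 to 19.4 cpm after ethanol in this skin, and 7 of the 8 were called higher, beside 15.1% of all genes.

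The difference between the MC903 effects in anti-Gr1-injected and uninjected wild-type skin was called for 1 member (4.56% of all genes), and the anti-Gr1, TSLPR.KO and BLT1.KO differences all share the same uninjected wild-type libraries. Ear2 fell further with anti-Gr1, by 1.27 ± 0.29 on the log2 scale (adjusted p = 0.0182). The call was lost without anti-Gr1 MC903 replicate 2 (-1.15, adjusted p = 0.0523), and against PBS-injected skin the difference was -0.13 (adjusted p = 0.962). Cd163 differed by 1.07 ± 0.38, which edgeR did not call (adjusted p = 0.114) and DESeq2 did (1.07, adjusted p = 0.0469).

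TSLPR.KO skin addressed what is left of the response without the TSLP receptor. At day 8, 1 member rose and 3 fell (2.45% of all genes called, 1.31% higher and 1.14% lower), with a median of -0.43 beside 0.00 over all genes. Chil3 had 4.48, 1.81 and 3.19 cpm after MC903 and 0.518 and 0.277 cpm after ethanol, separate, but at or below the lowest of the 3.93 to 112.2 cpm of wild-type MC903 skin except for replicate 1. It was 7.91-fold higher (2.98 ± 0.53, adjusted p = 0.0196), a call lost without MC903 replicate 1 (2.69, adjusted p = 0.101), MC903 replicate 3 (adjusted p = 0.0574), ethanol replicate 1 (3.44, adjusted p = 0.0575) or ethanol replicate 2 (2.64, adjusted p = 0.0694). Arg1 had 79.3, 59.4 and 68.7 cpm against 33.4 and 50.3 cpm, which did not overlap but missed the threshold (0.73 ± 0.25, adjusted p = 0.208). Mrc1 (0.09), Lyve1 (0.11), Cd163 (-0.41) and Adgre1 (-0.45) were not called either.

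Retnla in TSLPR.KO skin of day 8 had 8.93, 6.00 and 5.43 cpm after MC903 and 126.1 and 52.2 cpm after ethanol, far apart and 12.9-fold lower (-3.69 ± 0.35, adjusted p = 0.00112). Mgl2 had 16.5, 19.8 and 22.3 cpm against 111.7 and 51.1 cpm and was 4.05-fold lower (-2.02 ± 0.31, adjusted p = 0.00991), a call lost without MC903 replicate 1 (-1.88, adjusted p = 0.0887). Ear2 had 3.71, 8.27 and 2.61 cpm against 56.3 and 14.8 cpm, where ethanol replicate 1 stood far above replicate 2. It was 6.97-fold lower (-2.80 ± 0.57, adjusted p = 0.0368), and the call was lost without that library (-1.62, adjusted p = 0.226), without MC903 replicate 1 (-2.61, adjusted p = 0.217) and without MC903 replicate 3 (adjusted p = 0.0992).

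At day 12 in TSLPR.KO skin, 2 members rose and 4 fell (10% of all genes called, 5.41% higher and 4.62% lower), with a median of -0.23 beside -0.02 over all genes. Chil3 had 11.3, 4.11, 9.47 and 2.80 cpm against 0.270, 0.252 and 0.298 cpm, 21.4-fold higher (4.42 ± 0.58, adjusted p = 0.0023). Arg1 had 97.1, 84.6, 95.9 and 167 cpm against 34.8, 38.4 and 38.2 cpm and was 2.60-fold higher (1.38 ± 0.28, adjusted p = 0.0172), a call lost without ethanol replicate 1 (1.37, adjusted p = 0.0691) or ethanol replicate 2 (1.24, adjusted p = 0.0559). Both genes separated between treatments in every library. Retnla had 4.17, 8.0, 12.2 and 7.51 cpm against 158, 189.6 and 83.6 cpm, 20.2-fold lower (-4.33 ± 0.34, adjusted p = 0.000254). Ear2 was 12.8-fold lower (-3.68 ± 0.27, adjusted p = 0.000179), with 1.87 to 2.78 cpm against 14.3 to 35 cpm. Mgl2 was 3.51-fold lower (-1.81 ± 0.22, adjusted p = 0.00168), with 14.4 to 23.9 cpm against 37.3 to 78.4 cpm. For these 3 genes no MC903 library reached the ethanol range. Folr2 was 2.0-fold lower (-1.0 ± 0.18, adjusted p = 0.00884), with 14.1, 22.6, 16.3 and 17.6 cpm against 29.2, 42.9 and 22.5 cpm, which overlapped narrowly.

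The TSLPR.KO difference from uninjected wild-type skin at day 8 was called for 1 member, Mgl2, where 0.177% of all genes were called. The MC903 effect on Mgl2 was lower in TSLPR.KO skin by 2.44 ± 0.43 on the log2 scale (adjusted p = 0.0302). It was called in 8 of the 16 fits that left out a library. The others were those without each TSLPR.KO MC903 library, without TSLPR.KO ethanol replicate 1 (-1.86, adjusted p = 0.441), and without the wild-type cohort A MC903 library with 67 cpm, cohort A ethanol replicate 2, cohort B MC903 replicate 2 or cohort B ethanol replicate 2. Their adjusted p ran from 0.0504 to 0.441. With cohort B alone as the reference the difference was -2.02 (adjusted p = 0.116). Arg1 differed by -2.13 ± 0.50 (adjusted p = 0.108) and Chil3 by -3.84 ± 1.27 (adjusted p = 0.244), so their lower folds in the knockout were not shown to differ from wild type by edgeR, while DESeq2 gave adjusted p of 0.00403 and 0.0434 and also called Ear2 (-1.89, adjusted p = 0.0494). Without a filter on low counts edgeR called Arg1 (adjusted p = 0.0448). Among the fits without a library, Arg1 passed with edgeR in that without wild-type cohort B MC903 replicate 1 (-2.41, adjusted p = 0.0463).

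In BLT1.KO skin at day 8, where a receptor for leukotriene B4 is knocked out, 3 members rose and 3 fell (28.6% of all genes called, 14.1% higher and 14.6% lower), with a median of -0.05 beside -0.04 over all genes. Arg1 had 416, 458 and 1007 cpm after MC903 against 50.3, 69.5 and 50.3 cpm, 10.9-fold higher (3.45 ± 0.37, adjusted p = 0.000242). Chil3 had 13.4, 5.71 and 33 cpm against 0.252, 0.443 and 0.122 cpm (5.96 ± 0.75, adjusted p = 0.000517). Mrc1 had 468, 464 and 409 cpm against 229, 236 and 208 cpm and was 1.95-fold higher (0.96 ± 0.13, adjusted p = 0.000769). All 3 genes were higher in every MC903 library. Retnla had 1.97, 12.9 and 7.33 cpm against 138, 144 and 183 cpm, 21-fold lower (-4.39 ± 0.62, adjusted p = 0.000958). Ear2 had 4.13, 6.22 and 2.65 cpm against 25.3, 29.9 and 25.9 cpm, 6.36-fold lower (-2.67 ± 0.30, adjusted p = 0.000308). Mgl2 was 1.40-fold lower (-0.48 ± 0.14, adjusted p = 0.0345), and this call stood only in the fit without ethanol replicate 1 and was lost without any other library (adjusted p 0.0895 to 0.101) and in the fit over all skin groups (adjusted p = 0.285).

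The BLT1.KO difference was called for 2 members (6.95% of all genes). Ear2 fell further than in wild-type skin by 1.72 ± 0.36 on the log2 scale (adjusted p = 0.00853), in all 17 fits that left out a library. Retnla fell further by 2.15 ± 0.61 (adjusted p = 0.042), called in 4 of the 17 such fits, those without BLT1.KO MC903 replicate 2 or, among wild-type libraries, cohort B MC903 replicate 1 or ethanol replicate 3 or the cohort A ethanol library with 171 cpm. Without any other library the adjusted p ran from 0.0511 to 0.0977. Against cohort B alone neither passed, with -1.55 (adjusted p = 0.0886) for Ear2 and -1.93 (adjusted p = 0.17) for Retnla. Ear2 and Ltb4r1 both lie on chromosome 14, 11.7 Mb apart, and the part of the knockout's flanking chromosome in the Ear2 difference was not tested. Arg1 (0.61, adjusted p = 0.549) and Chil3 (-0.85, adjusted p = 0.733) did not differ past the threshold.

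The upstream cytokines and their receptors were read from a list of 12 genes of IL-4 and IL-13 signalling. Of these 10 rose and none fell at day 8 in uninjected wild-type skin, where 12.2% of all genes rose, with a median log2 fold change of 1.72 beside -0.03 over all genes. The groups differed widely in the share of all genes called, so each count is given beside it. At day 1 none rose and 3 fell (7.47% of all genes lower), at day 2 none was called (0% of all genes), and at day 5, 3 rose and none fell (8.15% higher). With PBS 5 rose (3.26% of all genes higher), with anti-Gr1 6 rose (15.1%) and in BLT1.KO 8 rose (14.1%), and none fell in these groups. In TSLPR.KO skin none was called at day 8 (2.45% of all genes called), and at day 12, 3 rose and 1 fell (5.41% higher and 4.62% lower). At day 5 Il4 itself did not pass the test (-0.05, adjusted p = 0.961), whereas Il4ra, the shared receptor chain, was called higher at 101.5 to 172.5 cpm against 13.2 to 27.5 cpm (2.63, adjusted p = 0.000683). Il4 was called higher at day 8, with 2.39 to 19.1 cpm against 0.555 to 1.34 cpm (2.92 ± 0.50, adjusted p = 0.00115). Il13 was lower in level, with 0.0684 to 1.97 cpm against 0 to 0.145 cpm (2.99, adjusted p = 0.0307). Its libraries overlapped, and the call stood in 6 of the 11 fits that left out a library. Il4ra had 153.9 to 363 cpm against 32.7 to 57.7 cpm (2.36 ± 0.20, adjusted p = 3.92e-06), without overlap. Stat6 (0.30, adjusted p = 0.254) and Cish (0.43, adjusted p = 0.0663) were the 2 of the 12 that were not called.

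In TSLPR.KO skin at day 8 Il4 had 0.481 to 1.18 cpm after MC903 and 0.936 to 1.97 cpm after ethanol (-0.71, adjusted p = 0.584), and Il4ra was not called either (0.78, adjusted p = 0.14). At day 12 Il4ra rose there (1.34, adjusted p = 0.0035), Il4 did not pass (0.15, adjusted p = 0.848), and Il13 fell by 2.50 on the log2 scale (adjusted p = 0.0177). This call of Il13 stood in 3 of the 7 fits that left out a library. Retnla and Ear2 fell and Chil3 rose in these mice at both days. A test of Il4 that did not pass does not show that Il4 was unchanged. The part of Il4 in these changes was not tested. In BLT1.KO skin Il4 (3.61, adjusted p = 0.000235), Il13 (3.99, adjusted p = 0.0098) and Il4ra (3.66, adjusted p = 2.56e-06) all rose. The effect on Il4ra was larger than in wild-type skin by 1.34 (adjusted p = 0.01), and the TSLPR.KO differences were not called for Il4 (-3.61, adjusted p = 0.113) or Il4ra (-1.57, adjusted p = 0.0742). The anti-Gr1 difference was called for Il2rg (-2.32, adjusted p = 0.0269) and Cish (-1.09, adjusted p = 0.043), where 4.56% of all genes were called. These calls stood in 13 and 6 of the 19 fits that left out a library. No other gene of the list was called in that difference.

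**Figure D3:**
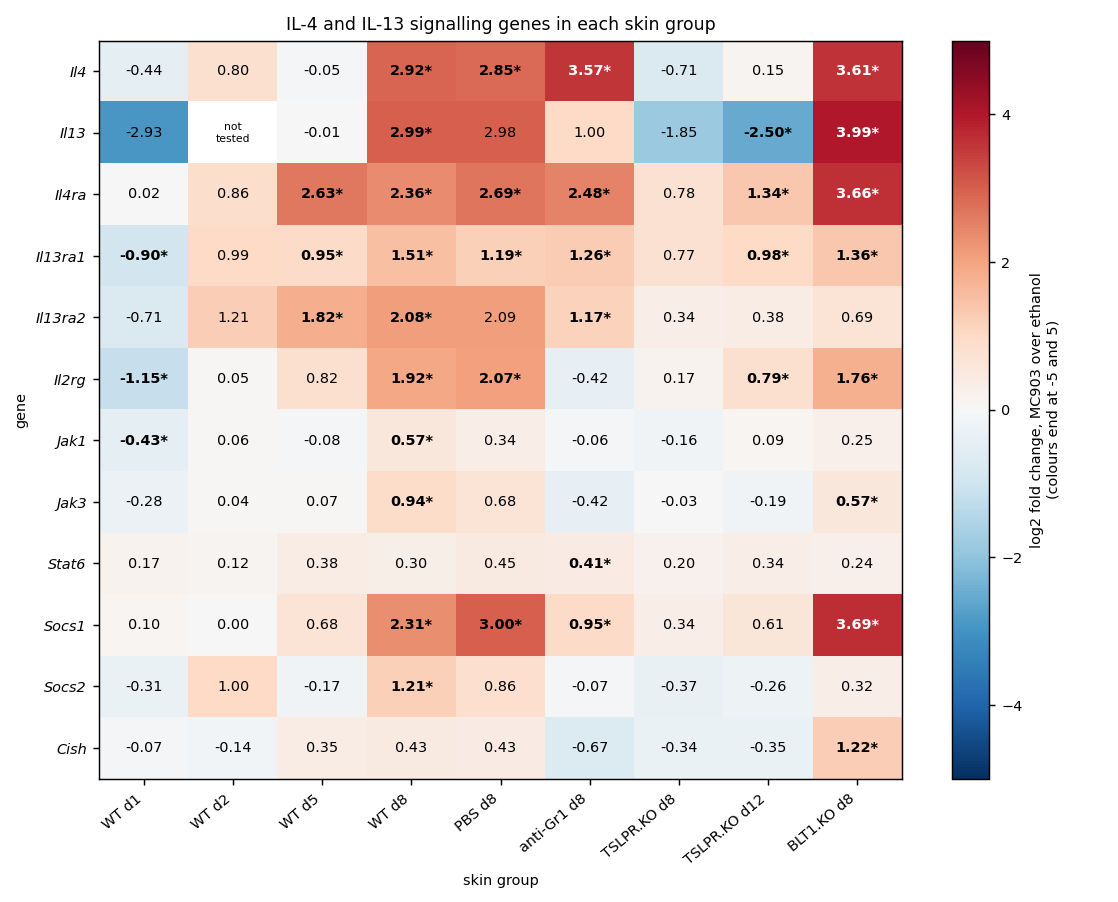
Log2 fold change of MC903 over ethanol (colour, ending at -5 and 5, with the value printed) for 12 genes of IL-4 and IL-13 signalling (vertical axis) in 9 skin groups (horizontal axis), where an asterisk and bold type mark an adjusted p under 0.05. Il4 and Il4ra are called in wild-type and BLT1.KO skin at day 8, and no gene of the list is called in TSLPR.KO skin at day 8.

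A list of 20 other genes of alternative activation moved mostly upwards at day 8, with 12 higher, none lower and a median of 0.96, where 12.2% of all genes were higher and 11.2% lower. Among them were the cholesterol hydroxylase Ch25h (3.51, adjusted p = 3.69e-05), the checkpoint ligand Pdcd1lg2 (4.09, adjusted p = 7.89e-05) and the elastase Mmp12 (2.12, adjusted p = 0.000229). Of 14 genes of classical activation 9 rose and none fell at day 8, with a median of 1.54, led by Ptgs2 (6.02, adjusted p = 4.86e-09), the enzyme of prostaglandin synthesis. Of 18 genes of the monocyte and macrophage lineage 14 rose and none fell at day 8, among them Ms4a7 (2.42), Itgam (1.32) and Cd68 (1.15), whereas at day 1 none rose and 11 fell (7.47% of all genes lower). Resident dermal macrophage genes were mixed at day 8, 2 of 10 higher, including the scavenger receptor Stab1 (1.80, adjusted p = 1.55e-05), and 2 lower, including the iron exporter Slc40a1 (-1.54, adjusted p = 0.0133).

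Markers of the other cell types that express the members moved too, and their part in the members' changes was not tested. The lineage genes summed to 722.8 to 1017 cpm after MC903 and 1046 to 1407 cpm after ethanol at day 1, without overlap and in the direction of the 5 members that fell. At day 8 the lineage sum was 1317 to 2721 cpm against 801.6 to 1334 cpm. The lymphatic sum, beside Lyve1, was 99.3 to 187.3 against 65.4 to 106.9 cpm at day 8, and 168.2 to 202.7 against 57.7 to 149.3 cpm with anti-Gr1. Keratinocyte genes, beside Arg1, summed to 12000 to 23080 against 6562 to 8872 cpm at day 8, and at day 2, when Arg1 had its lowest levels, to 3290 to 10990 against 6846 to 9340 cpm.

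Adipocyte genes moved the same way as Retnla. Their sum was 209.3 to 303.5 cpm after MC903 against 376.9 to 1202 cpm at day 5 (6 of 6 genes lower, beside 6.78% of all genes) and 128.2 to 267.3 against 334.9 to 659.4 cpm at day 8 (5 of 6 lower, beside 11.2%, median -1.52). In BLT1.KO skin, where Retnla also fell, the sum was 176.7 to 231 against 969.6 to 1152 cpm. In TSLPR.KO skin at day 8 it was 203.9 to 351.7 against 380.3 to 451.9 cpm, lower without overlap, and Retnla was 12.9-fold lower. None of the 6 genes was called there, where 2.45% of all genes were called (1.14% lower). Eosinophil genes, beside Ear2, summed to 7.37 to 8.41 against 8.02 to 25.3 cpm at day 5, and to 6.31 to 22.4 against 7.19 to 17 cpm at day 8, where 2 of 8 were higher and 1 lower. This list includes Ear6, a close copy of Ear2, and Alox15, which is also in the list of other genes of alternative activation. The sum is thus not a measure of eosinophils apart from those genes. The peroxidase Epx, 1 of the 8 genes, was at 0 in every library of day 5 and of TSLPR.KO day 8, while the sum at day 5 was not at 0. A single gene at 0 does not show whether eosinophils were present, which was not tested. Dendritic and Langerhans cell genes, beside Mgl2, summed to 216.3 to 291.8 against 321.2 to 359.6 cpm in TSLPR.KO skin at day 8 and to 138 to 185.1 against 181.6 to 289.1 cpm at day 12.

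**Figure D4:**
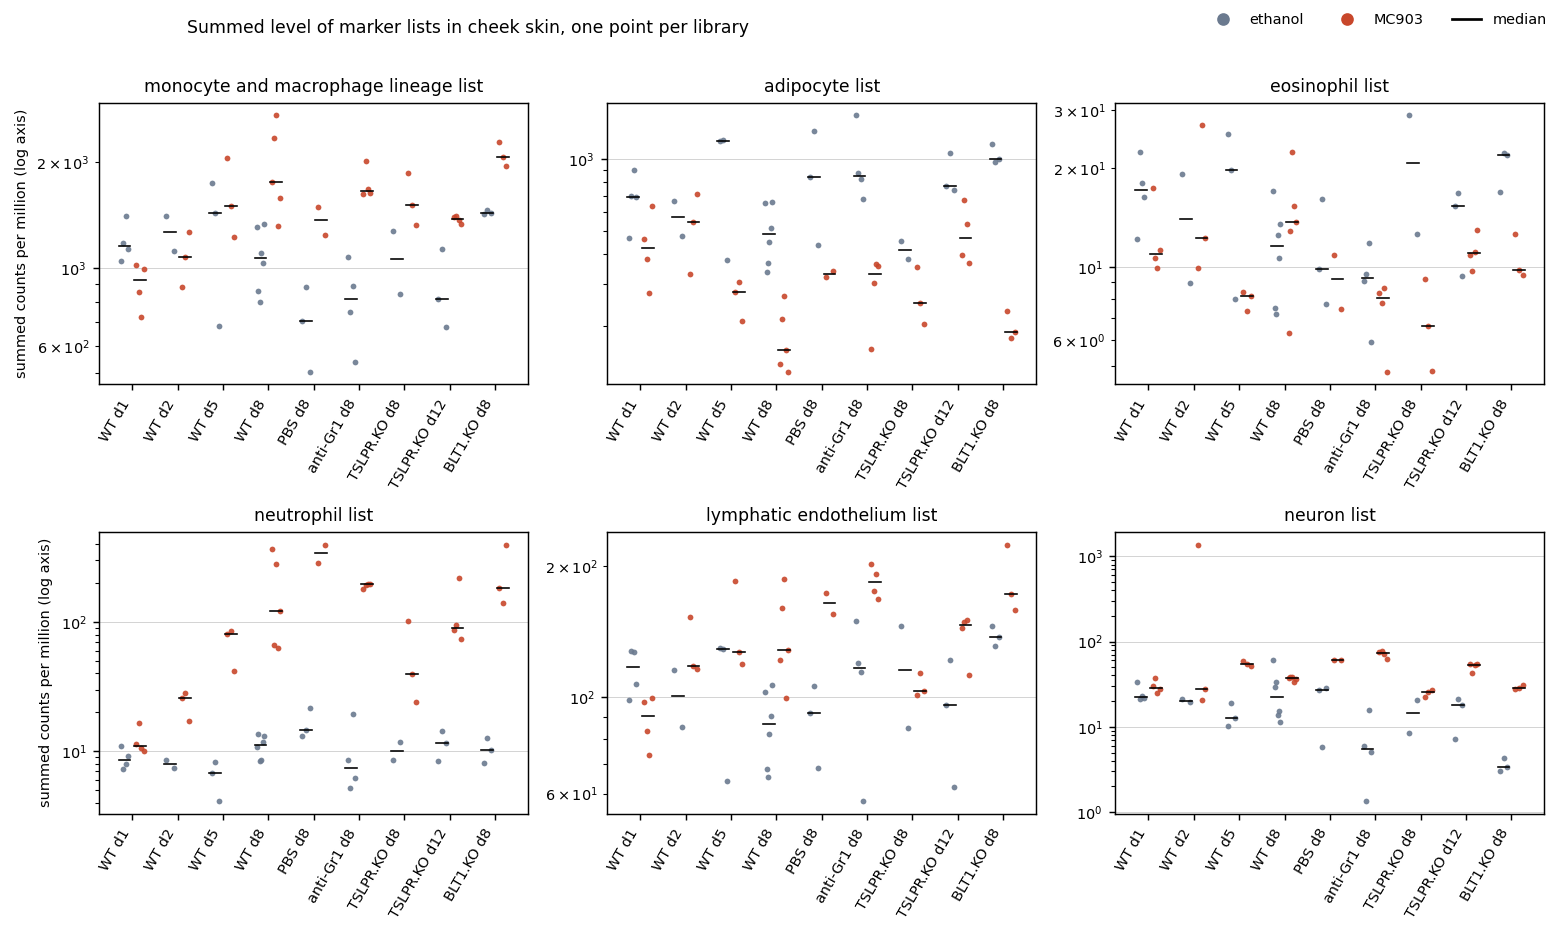
Summed level of 6 marker lists in skin (vertical axis, cpm) in 9 groups (horizontal axis), 1 point per library for MC903 and for ethanol: monocyte and macrophage lineage, adipocyte, eosinophil, neutrophil, lymphatic endothelium and neuron genes. At day 8 the MC903 points lie lower for adipocyte genes (128.2 to 267.3 against 334.9 to 659.4 cpm), and the neuron panel shows the day 2 library at 1368 cpm.

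Close copies of the members were read as well, since reads that suit 2 copies can be lost or split in counting. Chil4, the neighbour of Chil3, had 2.44 to 73.1 cpm against 0.0268 to 0.489 cpm at day 8 (7.07 ± 0.78, adjusted p = 3.71e-05) and was also called higher at day 5 (6.99, adjusted p = 0.016). In TSLPR.KO skin it was not called at day 8 (2.32, adjusted p = 0.361) and rose at day 12 (5.65, adjusted p = 0.00703). Ear1 (-1.97 at day 5, -1.0 at day 8) and Ear10 (-2.88 and -1.41) were called lower with Ear2, but not every copy followed. Rnase2a was called higher at day 8 (3.31, adjusted p = 0.0435), in 2 of the 11 fits that left out a library. It was also called higher with PBS (6.84), with anti-Gr1 (3.33) and in BLT1.KO skin (1.96). Ear6 was called neither at day 5 (-1.21) nor at day 8 (-0.03). Rnase2b was called lower at day 5 (-1.18) and in BLT1.KO skin (-3.84) but not at day 8 (-0.24). In BLT1.KO skin Ear6 was lower too (-4.49, adjusted p = 5.3e-05), with 0.142 to 0.230 cpm against 3.32 to 4.95 cpm. Clec10a, the lectin Mgl1 and the close relative of Mgl2, rose at day 8 (1.43, adjusted p = 0.00631) and with anti-Gr1 (1.89), where Mgl2 did not pass. Retnlg, a RELM family gene of neutrophils and marrow, rose at day 8 (3.81) while Retnla fell, so family members moved in opposite directions.

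For reference, the same genes were read in the trigeminal ganglion, where the threshold was an adjusted p under 0.1. MC903 called no member at day 1 (0% of all genes, 2 members and 2034 genes at an unadjusted p under 0.05, DESeq2 1 member), day 2 (0%, 0 members and 1527 genes, DESeq2 0) or day 5 (0.00823%, 0 members, DESeq2 0). It called none at day 8 (0.16%, 2 members at an unadjusted p under 0.05, DESeq2 1) or in TSLPR.KO mice at day 8 (0%, 2 members and 1886 genes, DESeq2 1). In PBS-injected mice 1 member rose (3.36% of all genes called), and in anti-Gr1-injected mice 3 rose and 2 fell (1.88%). In TSLPR.KO mice at day 12 none was called (0.304%, 3 members at an unadjusted p under 0.05, DESeq2 2).

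Chil3 in the ganglion of anti-Gr1-injected mice had 37.7, 5.35, 2.21 and 4.91 cpm after MC903 and 1.14, 0.873, 0.459 and 0.752 cpm after ethanol. All MC903 libraries were higher and replicate 1 was far above the rest (15.4-fold, 3.94 ± 0.80, adjusted p = 0.0308), a call lost without ethanol replicate 3 (3.76, adjusted p = 0.152). Lyve1 had 4.43, 3.36, 5.36 and 7.10 cpm against 2.05, 2.08, 2.34 and 2.59 cpm, without overlap (1.18 ± 0.23, adjusted p = 0.0235). Mgl2 had 2.27, 1.75, 3.45 and 2.76 cpm against 5.67, 4.70, 5.09 and 5.06 cpm and was lower (-0.98 ± 0.20, adjusted p = 0.0308), though not without ethanol replicate 3 (adjusted p = 0.118). Adgre1 had 2.74, 2.27, 4.68 and 4.38 cpm against 6.81, 6.25, 6.72 and 8.40 cpm and was lower as well (-0.98 ± 0.22, adjusted p = 0.0542). Cd163 had 25.6, 18.3, 17.5 and 29.6 cpm against 15.9, 7.08, 11.7 and 14.3 cpm (0.91 ± 0.23, adjusted p = 0.0838). The call of Adgre1 was lost without MC903 replicate 1 or 2 or ethanol replicate 1, 3 or 4 (adjusted p 0.11 to 0.152), and that of Cd163 without MC903 replicate 1, 2 or 4 or ethanol replicate 3 or 4 (adjusted p 0.101 to 0.27). In these ganglia 8 neutrophil genes summed to 19.3 to 163.6 against 18.2 to 31.7 cpm, and 5 microglia genes to 43.7 to 59.5 against 67.3 to 70.9 cpm.

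In the ganglion of PBS-injected mice Lyve1 had 4.57, 3.74, 4.19 and 3.59 cpm against 3.08, 2.74 and 1.78 cpm (0.67 ± 0.19, adjusted p = 0.0949), a call that stood only without MC903 replicate 4 and was lost without any other library (adjusted p 0.116 to 0.356). In TSLPR.KO mice at day 12 Chil3 had 2.44, 1.07, 1.92 and 1.48 cpm against 0.836, 0.143, 0.0780 and 0.330 cpm. Every MC903 library was higher, with 2.34 ± 0.51 (adjusted p = 0.151). There the replicate numbers paired the libraries, and with the number as a block the value was 2.49 ± 0.37 (adjusted p = 0.0154).

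In spinal cord, with the back treated, Chil3 rose and Adgre1 fell in uninjected and in anti-Gr1-injected mice. In uninjected mice 2 members were called (12.2% of all genes). Chil3 had 10.4, 10.9, 37.7 and 7.95 cpm after MC903 and 0.117, 2.62, 1.04, 5.94 and 1.66 cpm after ethanol, without overlap and 7.6-fold higher (2.93 ± 0.64, adjusted p = 0.00842). Adgre1 had 2.93, 2.59, 2.73 and 2.15 cpm against 4.93, 6.61, 7.22, 6.71 and 5.83 cpm, 2.41-fold lower (-1.27 ± 0.15, adjusted p = 0.000102). Both calls stood in every fit that left out a library, ethanol replicate 1 included. In PBS-injected mice edgeR called none (0% of all genes, 1 member and 1571 genes at an unadjusted p under 0.05), and DESeq2 called 1 member, Chil3 (edgeR log2 fold change 2.30 ± 0.51, adjusted p = 0.444). The count of 0 did not stand without any 1 of the 4 libraries: these edgeR fits called 1 to 3 members each.

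In anti-Gr1-injected mice 3 members were called in spinal cord (11.3% of all genes). Chil3 ran from 11.4 to 69.1 cpm after MC903 (median 23.6) and from 0.989 to 6.46 cpm after ethanol (median 4.26), 7.48-fold higher (2.90 ± 0.43, adjusted p = 0.000164). Adgre1 ran from 2.15 to 3.77 cpm (median 3.10) against 3.91 to 6.05 cpm (median 4.78), 1.65-fold lower (-0.72 ± 0.14, adjusted p = 0.00151). Mgl2 ran from 0.195 to 0.678 cpm (median 0.474) against 0.386 to 1.98 cpm (median 0.969), 2.32-fold lower (-1.22 ± 0.31, adjusted p = 0.0152). Chil3 and Adgre1 did not overlap between treatments, and Mgl2 did. The microglia genes summed to 103.9 to 147.1 against 211.6 to 237.7 cpm in uninjected mice and to 92.4 to 141.2 against 156.3 to 175.8 cpm with anti-Gr1, the direction of Adgre1. The neutrophil genes summed to 12.9 to 63.6 against 12.3 to 49.8 cpm in uninjected mice and to 57 to 374 against 28.5 to 114.6 cpm with anti-Gr1. Their part in these results was not tested.

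**Figure D5:**
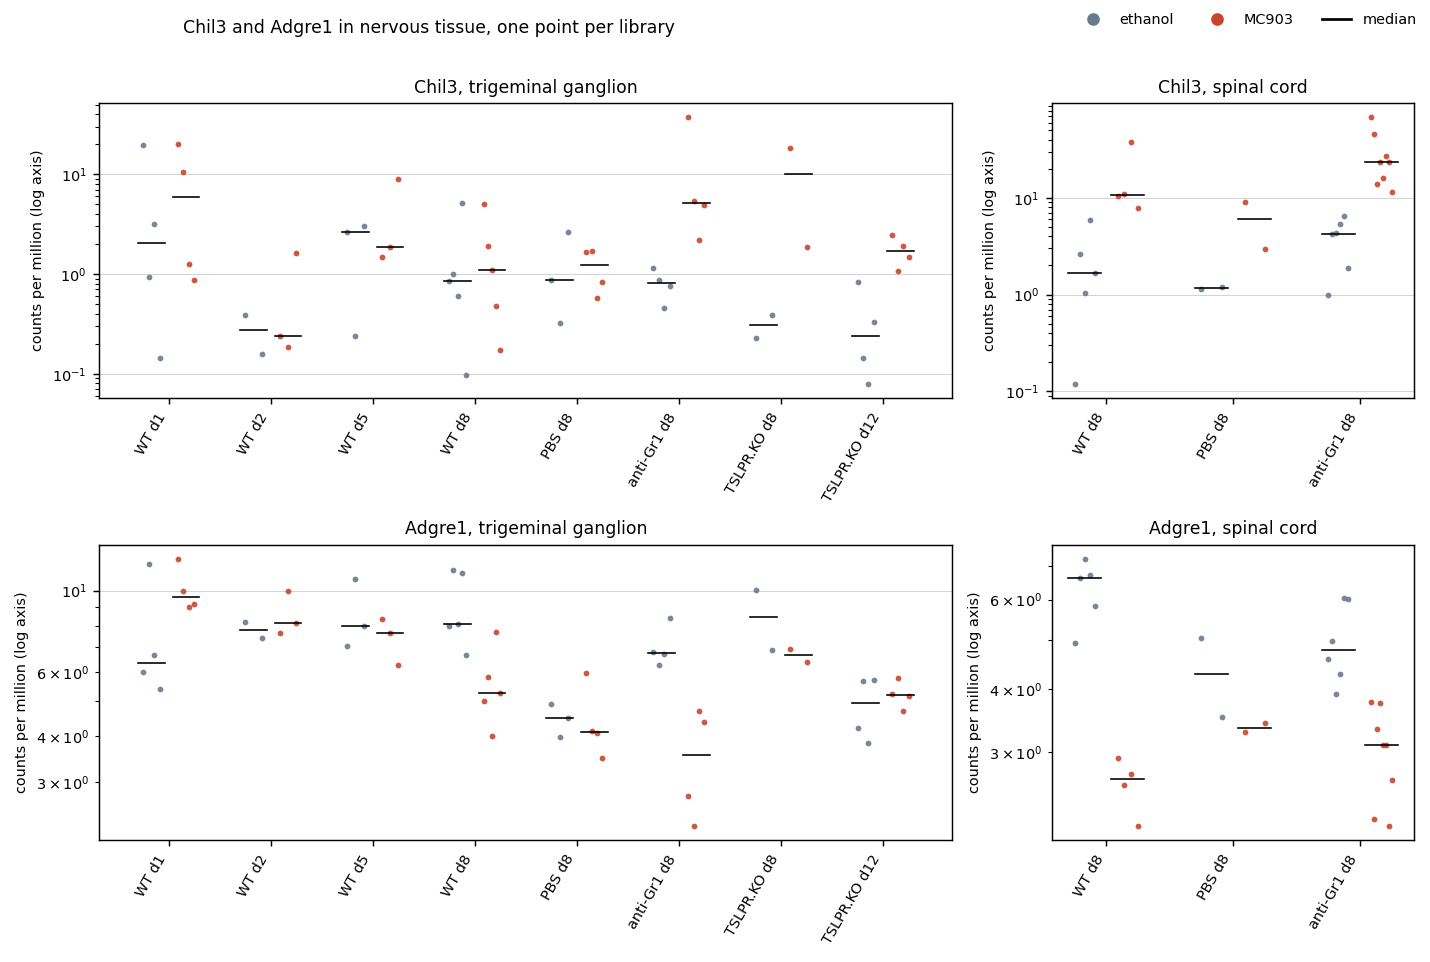
Level of Chil3 and of Adgre1 (vertical axis, cpm, log scale) in the groups of trigeminal ganglion and spinal cord (horizontal axis), 1 point per library for MC903 and for ethanol. In uninjected spinal cord Chil3 lies at 7.95 to 37.7 cpm with MC903 against 0.117 to 5.94 cpm, and Adgre1 at 2.15 to 2.93 against 4.93 to 7.22 cpm.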

How the data were processed

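The files deposited for each library were raw counts per Ensembl gene, which the authors made from poly(A)-selected RNA by mapping reads to mm10 with Bowtie2 and TopHat and assigning them with htseq-count. The annotation release and strand setting are not given in the sources used here, so reads of a gene and of an overlapping antisense gene cannot be told apart. Of 46078 identifiers, 45143 matched GENCODE M21, and the closing tally lines (9.0% to 32.22% of reads) were left out of all totals. Levels are counts per 1000000 counts on genes, without further scaling. No libraries were identical.

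Each comparison was fitted on its own libraries with edgeR 4.0.16 in R 4.3.3 (quasi-likelihood F test on genes whose libraries together held 10 counts or more, TMM scaling), with Benjamini-Hochberg adjustment over all genes tested and a threshold of 0.05, or 0.1 in ganglia as the study set it. A cohort term entered at wild-type day 8 in skin and ganglia. The 20 comparisons and 3 differences (interaction terms) were repeated under RLE size factors, DESeq2 1.42.0, other filters, the replicate number as a block, other references and without each library. The scripts were tested on simulated data. Same-numbered libraries deviated together (every correlation of deviations over 0.1, with 3 or more pairs) in 2 comparisons, ganglia of TSLPR.KO day 12 (0.191 to 0.514) and of wild-type day 5 (0.108 to 0.284). The block called no member in the latter.

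The members and the gene lists were chosen with earlier results of these data known. The genes named beyond the members are those of the IL-4 and IL-13 list, the close copies of members, the knocked-out genes and those with the smallest adjusted p in each list at day 8. Epx was named outside this rule, from the eosinophil list. Depth, 15931871 to 67342879 counts per library, leaves Chil3 after ethanol with few counts. The 18 wild-type day 12 libraries were not used here.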

Additional observations from a re-analysis of the deposited data

Results flagged for a closer look

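In 25 of 200 combinations of a member and a group, the highest or lowest library was set off by a gap large against the group's range. The rule is meant to flag about 1 in 20 by chance. Some flagged values rest on few counts, such as 4 for Retnla in anti-Gr1 spinal cord MC903 replicate 1, and members share libraries. An excess over chance was therefore not shown. The gap can be small in level where the others lie close together. In skin these were Cd163 in a wild-type day 8 ethanol library of cohort A, at 193.6 cpm with the others at 83.44 to 101.1, Mgl2 in anti-Gr1 ethanol replicate 3, at 59.25 cpm with the others at 34.49 to 35.98, and Arg1 in TSLPR.KO day 12 MC903 replicate 4, at 167.1 cpm with the others at 84.6 to 97.12.

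In the ganglion Chil3 stood out most. It was at 19.62 cpm in day 1 ethanol replicate 1 (others 0.1434 to 3.188), at 5.188 cpm in day 8 ethanol cohort B replicate 2 (others 0.09666 to 0.9995) and at 37.74 cpm in anti-Gr1 MC903 replicate 1 (others 2.212 to 5.349). Retnla was at 16.64 cpm in day 1 MC903 replicate 1 (others 1.241 to 3.436). At day 8 Lyve1 was at 3.832 cpm in MC903 cohort A replicate 1 (others 1.913 to 2.403) and at 1.085 cpm in ethanol cohort B replicate 2 (others 1.657 to 1.836), and Mgl2 at 1.643 cpm in ethanol cohort B replicate 3 (others 4.563 to 5.232). With anti-Gr1, Arg1 was at 0.5799 cpm in MC903 replicate 1 (others 0.1623 to 0.1893) and 0.2857 cpm in ethanol replicate 1 (others 0.09695 to 0.1254), and Ear2 at 0.7619 cpm in ethanol replicate 1 (others 0.2038 to 0.2926). In TSLPR.KO mice at day 12, Ear2 was at 0.4309 cpm in MC903 replicate 4 (others 0.2034 to 0.2338) and Folr2 at 0.5611 cpm in MC903 replicate 2 (others 0.2104 to 0.2463). There Mgl2 was at 4.987 cpm in MC903 replicate 4, close to the others at 4.734 to 4.746, and Mrc1 at 13.78 cpm in ethanol replicate 3, somewhat below the others at 16.45 to 16.93.

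In spinal cord without injection, ethanol replicate 1 had Arg1 at 1.056 cpm (others 0.1265 to 0.3111), Retnla at 1.526 cpm (others 0.08284 to 0.3084) and Mgl2 at 0.0 cpm (others 0.8836 to 1.075), ethanol replicate 2 had Cd163 at 3.921 cpm (others 2.082 to 2.524), and MC903 replicate 3 had Chil3 at 37.67 cpm (others 7.949 to 10.93). With anti-Gr1, MC903 replicate 1 had Retnla at 0.1756 cpm (others 0.0 to 0.07345) and Ear2 at 2.854 cpm (others 0.2814 to 0.8329), and ethanol replicate 5 had Arg1 at 0.3435 cpm (others 0.1237 to 0.1605).

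The MC903 effect in skin at day 8 was called different from uninjected wild-type skin for Ear2 with anti-Gr1 (log2 difference -1.269), Mgl2 in TSLPR.KO (-2.436), and Retnla (-2.147) and Ear2 (-1.721) in BLT1.KO. None of these was called by edgeR with the other reference. Against PBS-injected skin Ear2 gave -0.13 (adjusted p = 0.962). Against cohort B alone Mgl2 gave -2.02 (adjusted p = 0.116), Retnla -1.93 (adjusted p = 0.17) and Ear2 in BLT1.KO -1.55 (adjusted p = 0.0886).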

How the results depend on the processing

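The limits are few libraries per group, 2 to 6 in most, few Chil3 counts after ethanol, and calls near the threshold. Calls were tallied for the 10 members in skin and in the 3 differences and, in ganglia and spinal cord, for the members called there alone, so calls gained in those tissues are counted further on and not here. Of 804 such values under another setting, 746 kept their direction and their side of the threshold, 18 lost a call, 28 gained one and 12 changed sign. Of 1237 such values without a library, the same numbers were 1110, 72, 12 and 43. The cause of each change below was not tested.

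With DESeq2, 6 members were called in PBS skin, 1 in the ganglion at day 1 (Retnla), 1 at day 8 (Adgre1), 1 in TSLPR.KO at day 8 and 2 at day 12, 4 in spinal cord without injection and 1 with PBS, 2 in the anti-Gr1 difference (Cd163 adjusted p = 0.0469) and 4 in the TSLPR.KO difference. Without a filter on low counts 4 were called in PBS skin, 1 in the ganglion at day 8, 2 in TSLPR.KO ganglia at day 8 and 1 at day 12, and 2 in the TSLPR.KO difference. The fit over all skin groups called 0 at day 1, 1 at day 2 (Arg1, adjusted p = 0.00219) and 6 with PBS. With PBS-injected skin as the reference the anti-Gr1 difference called 0, and with cohort B the TSLPR.KO and BLT1.KO differences called 0.

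Counts that moved by less than 1.5 times included 7 with DESeq2 at day 1, 6 at day 5 and 7 at day 8 in skin. With the replicate block 2 members were called at day 1 (Retnla, Folr2 and Adgre1 lost with adjusted p of 0.0757, 0.0605 and 0.0524), 2 at day 2 (Arg1, adjusted p = 0.00048, and Chil3, adjusted p = 0.0488), 2 in PBS ganglia, 1 in TSLPR.KO ganglia at day 8 and 1 at day 12, 1 in PBS spinal cord and 0 in the TSLPR.KO difference (Mgl2 -2.52, adjusted p = 0.156). It gained Mgl2 in skin at day 5 (-1.0, adjusted p = 0.0132). It also lost Folr2 in TSLPR.KO skin at day 12 (-1.04, adjusted p = 0.0595) and Mgl2 in anti-Gr1 spinal cord (-0.98, adjusted p = 0.0571). In PBS spinal cord the same-numbered libraries correlated at -0.31, and the crossed pairing, added after the data were seen, called 955 genes against 224 with the block as numbered, and 1 member in each. The pairing was checked in 20 comparisons, with correlations from -0.532 to 0.516.

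Sign changes, none called in either fit, came with the block for Cd163 (0.35), Folr2 (0.104) and Adgre1 (0.361) at day 2, Adgre1 at day 5 (0.046), Folr2 with PBS (-0.1) and anti-Gr1 (-0.03), Mrc1 in TSLPR.KO at day 12 (0.019) and Folr2 in the BLT1.KO difference (-0.021, and -0.035 without a filter). They came in cohort A alone for Folr2 (0.025) and against PBS for Folr2 (-0.104) and Lyve1 (-0.185) in the anti-Gr1 difference.

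Leaving out a library in turn, the number of members called in skin ranged from 2 to 7 at day 1, 0 to 0 at day 2, 4 to 5 at day 5, 5 to 7 at day 8, 1 to 5 with PBS, 7 to 8 with anti-Gr1, 1 to 4 in TSLPR.KO at day 8, 5 to 6 at day 12 and 5 to 6 in BLT1.KO. In ganglia it ranged from 0 to 0 at days 1, 5 and 8, 0 to 1 at day 2, 0 to 2 with PBS, 1 to 5 with anti-Gr1, and 0 to 2 and 0 to 1 in TSLPR.KO at days 8 and 12. In spinal cord it was 2 to 5 without injection, 1 to 3 with PBS and 3 to 5 with anti-Gr1, and in the differences 0 to 1 (anti-Gr1), 0 to 2 (TSLPR.KO) and 1 to 2 (BLT1.KO).

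Some uncalled values then crossed 0. At day 1 these were Arg1 (-0.05 to 0.17) and Chil3 (-0.669 to 0.1). At day 2 they were Retnla (-0.154 to 0.17), Mrc1 (-0.211 to 0.638), Cd163 (-0.446 to 0.354), Folr2 (-0.687 to 0.113), Lyve1 (-0.004 to 1.225) and Adgre1 (-0.508 to 0.374). At day 5 they were Folr2 (-0.743 to 0.003) and Adgre1 (-0.219 to 0.373), with PBS Mgl2 (-0.048 to 0.699) and Folr2 (-0.127 to 0.406), and with anti-Gr1 Mgl2 (-0.113 to 0.113) and Folr2 (-0.173 to 0.201). In TSLPR.KO at day 8 they were Mrc1 (-0.215 to 0.474), Cd163 (-0.758 to 0.037), Lyve1 (-0.374 to 0.831) and Adgre1 (-0.822 to 0.034), at day 12 Mrc1 (-0.178 to 0.121), and in the BLT1.KO difference Folr2 (-0.128 to 0.292).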
